A study of Mus musculus with 2 samples.

Results

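The genes described are those of the Golgi enzymes that trim and build sugar chains: glycosyltransferases, among them the sialyltransferases, and the mannosidases that act before them. Members were chosen by gene symbol alone, as every gene of the deposited expression table whose name begins with St3gal, St6gal, St8sia, B3gnt, B3galt, B4galt, Gcnt, C1galt, Man1a, Man1c or Man2a, or with Galnt, Fut or Mgat and a number (for Mgat, 1 to 5). This gave 87 genes of 34295, on 89 table rows. They were grouped by enzyme family into 13 groups.

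Proteins and lipids that pass through the Golgi receive sugar chains one sugar at a time, and each transferase accepts only the chain left by the enzymes before it. N-glycans, attached to asparagine, are first cut back by mannosidases and then branched by the Mgat enzymes. Mucin-type O-glycans are started on serine or threonine by the Galnt enzymes and built into cores by C1galt1 and the Gcnt enzymes. Both kinds of chain, and glycolipids, are then extended with galactose and N-acetylglucosamine (GlcNAc) and capped with fucose or sialic acid, and lectins such as selectins, galectins and Siglecs read these ends. In leukocytes such chains serve rolling on vessel walls, and in fibroblasts they cover matrix proteins and adhesion receptors.

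Poly(A) RNA of wild-type C57BL/6J mouse cells was sequenced in 2 libraries, 1 from embryonic fibroblasts and 1 from macrophages grown out of bone marrow. The fibroblasts came from embryos of E13.5 to E14.4 without head and red tissue, were sorted negative for CD45, CD11b and F4/80, and were grown in complete DMEM with 10% serum to passage 4 to 7 (100000 cells). The macrophages were grown from whole marrow in RPMI with 10% serum and 30% L929-conditioned medium, lifted on day 6 and replated at 750000 cells. Neither culture was treated or genetically altered, and the labels do not say how many animals were pooled. Values are transcripts per 1000000 (TPM), which are scaled for transcript length and can be compared between genes of a library. They summed to 999545 and 999609, and carry no read depth, from which an interval or a detection limit would have to come. With 1 library per cell type there is no error, no test and no p-value, and cell type cannot be told apart from medium, cell number or preparation. In bulk RNA, fewer cells of a type and less RNA per cell cannot be told apart either.

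Each library held the defining genes of its label. All 18 fibroblast markers passed the size rule given below in the fibroblast library and all 18 macrophage markers in the macrophage library. In the macrophage library 5 of 8 neutrophil markers were higher, and all 8 summed to 495.5 TPM against 1.93; S100a9 stood at 268 TPM, the granule gene Mpo at 2.83 and Ly6g at 0. In the fibroblast library 2 of 4 neural genes were higher, Stmn2 at 39.7 TPM and Tubb3 at 20.8, while Sox10 stood at 0.141 and Elavl3 at 0. Chondrocyte genes (2 of 4, summed level 11.5 TPM), skeletal muscle genes (1 of 4, 6.11 TPM) and mast and basophil genes (1 of 3, all of it Mcpt8 at 30.8 TPM with Cpa3 at 0) were also higher there. Summed levels of dendritic, B cell, T cell, erythroid, endothelial and epithelial markers lay between 0.191 TPM for B cell genes in fibroblasts and 8.48 TPM for endothelial genes in macrophages, and none of these genes passed the rule. The part of any of these cells in the results was not tested.

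The size rule called a gene higher in one of the libraries if its TPM plus 1 was at least 4-fold that in the other (a log2 ratio of 2 or more in size) and its value there was 5 TPM or more. Of the 87 members, 65 reached 1 TPM in at least 1 library, here called detected, and 54 reached 5 TPM. Of these 54, 9 were higher in fibroblasts and 10 in macrophages, together 35.2%. With a pseudocount of 5 in place of 1, the calls of B3gnt7, Fut10, Galnt12, Gcnt4, Mgat3, St6gal1 and St8sia4 were lost. By the same rule 23.1% of all 11191 genes at 5 TPM or more were called, 14.3% toward fibroblasts and 8.77% toward macrophages, against 16.7% and 18.5% of the members. The share of members within 2-fold was 44.4% (24 of 54), and that of all genes 61.3%. Where a sentence gives a pair of TPM values without naming the libraries, the fibroblast value comes first, except that the higher value comes first for a gene called higher in macrophages.

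The total level of the members was nearly equal, while some single members differed widely. Their summed TPM was 1662 in fibroblasts and 1614 in macrophages, and the median log2 ratio of the detected members, fibroblast over macrophage, was 0.32, beside 0.28 over all detected genes. Levels were moderate: the median of the higher value over detected members was 23.5 TPM, against 23.7 over all detected genes, and the highest value was the 136 TPM of St3gal5 in macrophages. Across the 54 members Spearman's rho between the libraries was 0.31, and across the 11191 genes 0.55; these describe genes of the same 2 libraries and carry no test. In 9 of the 13 families the member with the highest TPM was a different gene in each library. Some leaders were only just ahead, as Mgat2 over Mgat1 in macrophages at 78.4 and 75.4 TPM. Others were low, as St8sia2 in fibroblasts at 3.50 TPM and St8sia4 in macrophages at 5.39.

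**Figure D1:**
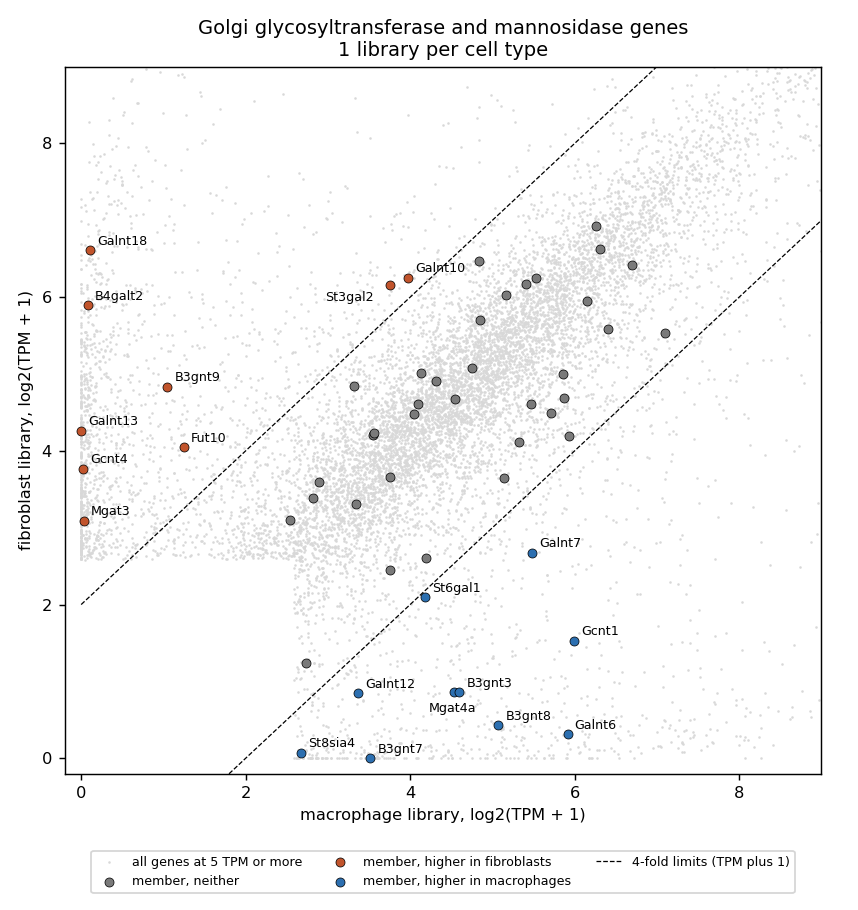
Level of each gene in the fibroblast library (vertical) against the macrophage library (horizontal), as log2(TPM + 1); coloured points are the 54 members at 5 TPM or more, pale points all genes at 5 TPM or more within the plotted range, dashed lines the 4-fold limits. The 9 members higher in fibroblasts lie above the upper line, and the 10 higher in macrophages below the lower line.

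Calls per family are set beside the 23.1% of all genes at 5 TPM or more that passed the rule, and most families are small. Of the members at 5 TPM or more, none of 5 mannosidases, 2 core 1 genes, 2 B3galt genes and 2 St6galnac genes passed the rule. By contrast 6 of 11 Galnt genes, 2 of 3 Gcnt genes and 4 of 5 B3gnt genes did. In between were the Mgat genes with 2 of 6, St3gal with 1 of 6, B4galt with 1 of 7 and Fut with 1 of 3. St6gal and St8sia had a single member each at 5 TPM, and both passed. With 1 library per cell type no difference between families, or from the share of all genes, was tested.

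**Figure D2:**
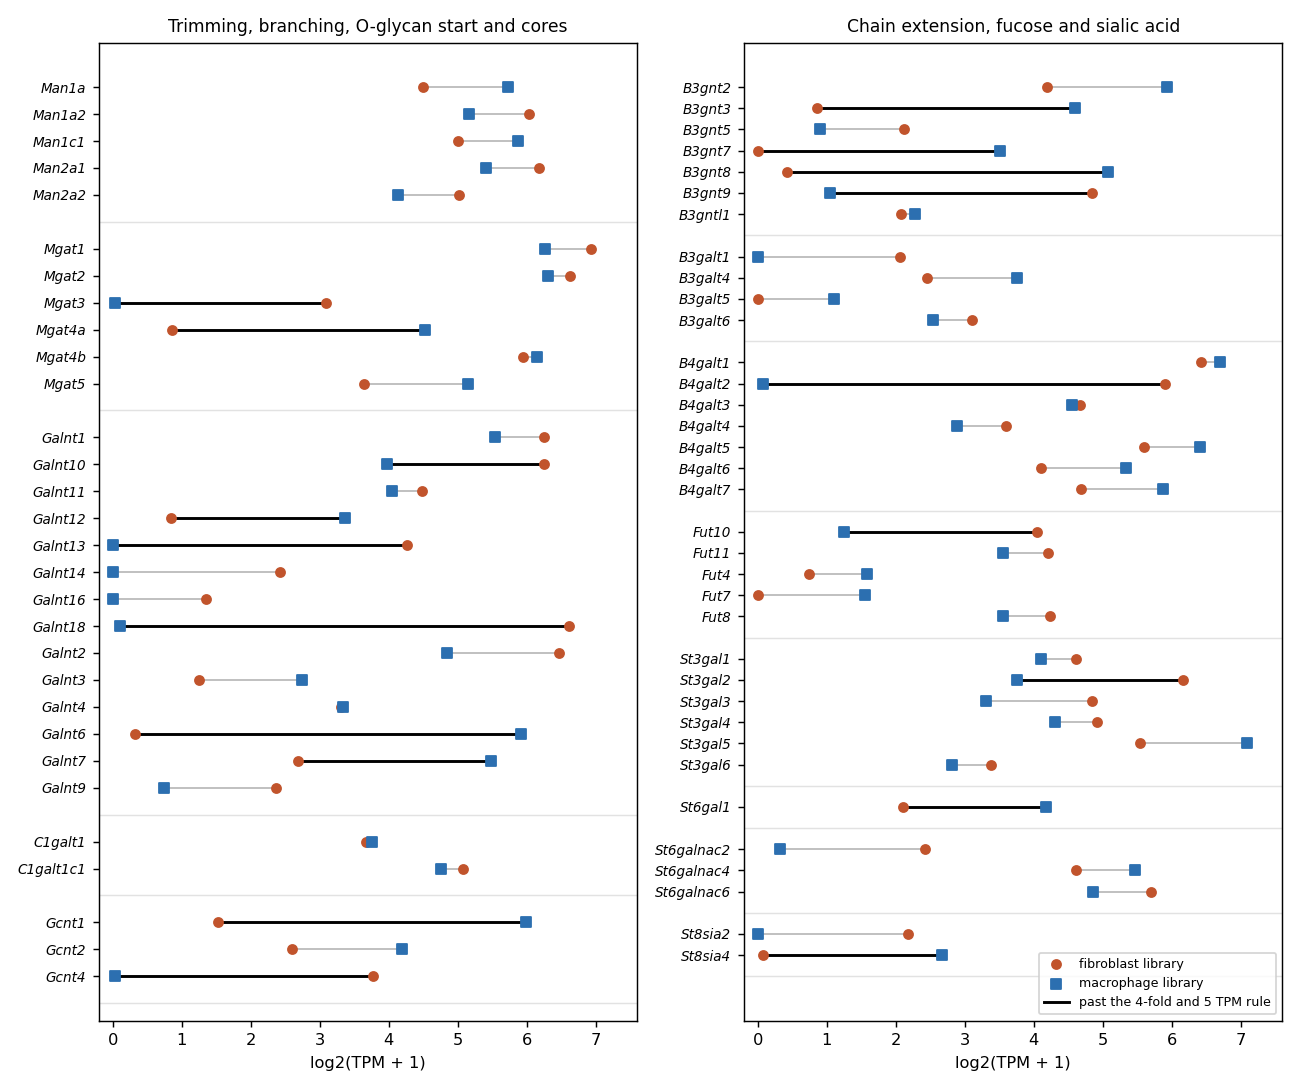
Level of the 65 detected members in the fibroblast library (circles) and the macrophage library (squares) as log2(TPM + 1), grouped by family; black lines join members past the size rule. Mannosidases, core 1 genes and most B4galt genes lie close together, while lines in the Galnt, Gcnt and B3gnt groups are long and run in both directions.

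The enzymes that trim N-glycans and open their branching were at 5 TPM or more in both libraries, and none passed the rule. Man1a, Man1a2 and Man1c1, which remove mannose before branching starts, stood at 21.4, 64.5 and 30.9 TPM in fibroblasts versus 51.7, 34.9 and 57.2 TPM in macrophages. Man2a1 and Man2a2, which cut after the first GlcNAc is on, stood at 71.3 and 31.2 TPM against 41.4 and 16.5. The leading mannosidase was Man2a1 in fibroblasts, with 32.5% of the family's TPM, and Man1c1 in macrophages, with 28.4%. Mgat1, which starts every hybrid and complex N-glycan, stood at 121 TPM against 75.4, and Mgat2, which starts the second antenna, at 97.9 against 78.4. Man1a was the furthest apart of these, at 2.41-fold.

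Later branching differed by member. Mgat3, which adds the bisecting GlcNAc that hinders further branching, was higher in fibroblasts, at 7.51 TPM against 0.0208 in macrophages (log2 ratio 3.06). Mgat4a, which adds a further antenna, was higher in macrophages, at 22.1 TPM against 0.821 (log2 ratio -3.66). Its paralog Mgat4b, with the same activity, was at 60.7 TPM in fibroblasts versus 70.0 in macrophages and was the more abundant of the pair in both. Mgat5, whose branch is favoured for long chains that galectins bind, stood at 11.5 TPM in fibroblasts versus 34.3 in macrophages, a 2.98-fold difference within the limit. Mgat3 maps to the plus strand of chromosome 15, from 80173721 to 80215519, and Mgat4a to the minus strand of chromosome 1, from 37439340 to 37541016 (GRCm38, as are all positions here). Mgat4c and Mgat4e were below 1 TPM in both libraries, and Mgat4d and Mgat5b were listed at 0.

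The Galnt enzymes, which start mucin-type O-glycans and differ in the peptides they accept, had 6 calls among 11 genes at 5 TPM. These calls, 3 in each direction, made up 54.5%, beside 80% for B3gnt, 66.7% for Gcnt and 23.1% for all genes. Galnt18, Galnt10 and Galnt13 were higher in fibroblasts. Galnt18 was the most abundant of the family there at 96.7 TPM and stood at 0.0788 TPM in macrophages (log2 ratio 6.50, the largest among the members). Galnt10 stood at 75.2 against 14.7 TPM, a 5.11-fold difference, and Galnt13 at 18.2 TPM and listed at 0.

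Galnt6, Galnt7 and Galnt12 were higher in macrophages. Galnt6 led the family there at 59.3 TPM and stood at 0.244 TPM in fibroblasts (log2 ratio -5.60). Galnt7 stood at 43.7 against 5.39 TPM, an 8.11-fold difference, and Galnt12 at 9.34 against 0.798. Galnt7 and Galnt10 are both known as follow-up enzymes that prefer peptides already carrying a sugar, and they lay on opposite sides.

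The broadly expressed starters were present in both libraries and did not pass the rule. Galnt1 stood at 75.0 TPM in fibroblasts versus 45.3 in macrophages, Galnt2 at 87.6 and 27.6, and Galnt11 at 21.3 and 15.5. Galnt2 was the furthest apart of these, at 3.17-fold. Galnt4, which shares exon sequence with Poc1b on the same strand, stood at 8.90 and 9.10 TPM, and Galnt3, the closest relative of Galnt6, at 1.37 and 5.66. Galnt14, Galnt16 and Galnt9 were detected below the 5 TPM minimum, at 4.36, 1.56 and 4.16 TPM in fibroblasts against 0, 0 and 0.672. Galnt5 and Galnt15 were below 1 TPM in both libraries.

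In all, 8 Galnt genes reached 5 TPM in fibroblasts and 9 in macrophages, with 6 in common. The family sum was 401 TPM in fibroblasts and 231 in macrophages. Galnt18 and Galnt2 made up 45.9% of it in fibroblasts, and Galnt6 and Galnt1 45.2% in macrophages. Galnt18 maps to the minus strand of chromosome 7, from 111471661 to 111779977, Galnt13 to the plus strand of chromosome 2, from 54436317 to 55118309, and Galnt10 to the plus strand of chromosome 11, from 57645442 to 57787514. Galnt6 maps to the minus strand of chromosome 15, from 100691813 to 100729376, Galnt7 to the minus strand of chromosome 8, from 57523828 to 57653032, and Galnt12 to the plus strand of chromosome 4, from 47091909 to 47123070.

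Neither core 1 gene passed the rule, while 2 Gcnt genes did, in opposite directions. C1galt1, which adds galactose to make core 1, stood at 11.7 TPM in fibroblasts versus 12.5 in macrophages, and its chaperone C1galt1c1 at 32.7 and 26.0. The core 2 branch on top of it is made by 3 Gcnt enzymes. Gcnt1, the core 2 enzyme known from leukocytes, stood at 62.5 TPM in macrophages versus 1.89 TPM in fibroblasts, a 33.1-fold difference. Gcnt4, also a core 2 enzyme, ran in the opposite direction, at 12.6 TPM in fibroblasts versus 0.0190 TPM in macrophages (log2 ratio 3.74). The third, Gcnt3 of mucous epithelia, was listed at 0 in both.

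Gcnt2, which branches existing chains into the I antigen, stood at 5.07 TPM in fibroblasts versus 17.3 in macrophages, 3.41-fold apart and within the limit, and Gcnt7 was below 1 TPM in both. Gcnt4 made up 64.2% of the Gcnt TPM in fibroblasts and Gcnt1 78.2% in macrophages, where the family sum was 4.07-fold that of fibroblasts, 79.9 against 19.6 TPM. Gcnt1 maps to the minus strand of chromosome 19, from 17326141 to 17372844, and Gcnt4 to the plus strand of chromosome 13, from 96924689 to 96950906. Of the 8 neutrophil markers 5 were higher in the same library as Gcnt1, and neutrophils also express Gcnt1; their part in its value was not tested.

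The 250 bases before the start of both core 2 genes, and of a pair of Galnt genes, are shown because these family members had opposite calls. They are RefSeq sequences (GRCm38.p6), read 5′ to 3′ on the strand of the gene, and capitals mark each match to the motifs searched. Gcnt1, higher in macrophages, is at chr19:17372845-17373094 on the minus strand; Gcnt4, higher in fibroblasts, at chr13:96924463-96924712 on the plus strand; Galnt6, higher in macrophages, at chr15:100729377-100729626 on the minus strand; and Galnt10, higher in fibroblasts, at chr11:57645192-57645441 on the plus strand.
Gcnt1: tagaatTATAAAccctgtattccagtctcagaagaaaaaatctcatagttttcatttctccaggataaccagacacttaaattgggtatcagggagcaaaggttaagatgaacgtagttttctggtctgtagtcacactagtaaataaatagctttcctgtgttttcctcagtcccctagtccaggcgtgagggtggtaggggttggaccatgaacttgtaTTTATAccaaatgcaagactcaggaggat
Gcnt4: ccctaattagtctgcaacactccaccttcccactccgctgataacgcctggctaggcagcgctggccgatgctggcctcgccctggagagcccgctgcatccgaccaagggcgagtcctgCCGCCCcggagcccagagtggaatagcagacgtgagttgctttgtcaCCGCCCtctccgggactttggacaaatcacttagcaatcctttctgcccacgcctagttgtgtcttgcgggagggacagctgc
Galnt6: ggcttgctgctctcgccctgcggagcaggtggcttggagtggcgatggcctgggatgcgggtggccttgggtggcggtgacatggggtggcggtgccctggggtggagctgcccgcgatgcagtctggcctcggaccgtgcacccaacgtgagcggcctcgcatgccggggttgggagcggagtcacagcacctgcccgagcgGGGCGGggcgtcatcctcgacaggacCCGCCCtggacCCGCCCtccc
Galnt10: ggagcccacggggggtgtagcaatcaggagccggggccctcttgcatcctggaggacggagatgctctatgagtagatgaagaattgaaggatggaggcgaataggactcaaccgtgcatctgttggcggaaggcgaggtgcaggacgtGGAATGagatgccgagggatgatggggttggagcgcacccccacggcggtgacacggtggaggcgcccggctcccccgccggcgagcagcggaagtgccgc
The motifs were the GC box GGGCGG, the TATA box TATAAA, the PU.1 core GAGGAAGT, the AP-1 site TGANTCA and the TEAD site GGAATG, on both strands. The Gcnt1 window had 40.4% G and C and matched the TATA box at 244 to 239 and, on the opposite strand, at 29 to 24 bases before the start. The Gcnt4 window had 61.2% G and C with 2 GC boxes, the Galnt6 window 72.8% with 3, and the Galnt10 window 64.4% with 1 TEAD match at 101 to 96 bases before the start. RefSeq lists 3 starts for Gcnt1, 2 for Gcnt4 and Galnt6 and 1 for Galnt10; the start nearest to that of the principal GENCODE transcript was taken, and gene-level TPM do not say which start was used.

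Of the 87 members, 63 had a promoter window. These included 4 of the 9 called toward fibroblasts, Galnt18 and Mgat3 not among them, and 9 of the 10 called toward macrophages. The ratio of observed to expected CpG, which is high in the promoters of broadly used genes, reached 0.6 in 6 of 9 promoters of members higher in macrophages (66.7%), beside 33.1% of the 714 promoters of all genes called in that direction. It did so in 4 of 4 promoters toward fibroblasts, beside 55.2% of 1162, and in 21 of 26 of members at 5 TPM without a call (80.8%), beside 78.1% of 6738. Among members below 5 TPM it was 8 of 24 (33.3%), beside 19.4% of 8041. The 3 windows under 0.6 among the macrophage members were those of Gcnt1, St6gal1 and B3gnt3.

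The PU.1 core was found in none of the 9 windows toward macrophages, and in 7.56% of those of all genes called in that direction. The GC box was found in 7 of these 9 (77.8%), beside 42.3%, and the TATA box in that of Gcnt1 alone, beside 10.8%. The TEAD site was found in 1 of 4 windows toward fibroblasts, that of Galnt10, beside 14.6%. The AP-1 site was found in none of the 13 of called members. Of all genes called toward fibroblasts 4.73% had it, and of those called toward macrophages 8.82%. A match describes letters in 250 bases, and its absence says nothing about a factor.

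Among the families that extend chains, 4 of 5 B3gnt genes at 5 TPM passed the rule, 1 of 7 B4galt genes and none of 2 B3galt genes. Over all genes at 5 TPM or more the share was 23.1%. B3gnt enzymes add GlcNAc to galactose, the move that lengthens chains into poly-N-acetyllactosamine. B3gnt8, B3gnt3 and B3gnt7 were higher in macrophages. B3gnt8, which acts together with B3gnt2 on branched N-glycans, stood at 32.6 TPM against 0.344 (log2 ratio -4.65), and B3gnt3, which extends core 1, at 23.2 against 0.812. B3gnt7, known from keratan sulfate, stood at 10.4 TPM and was listed at 0 in fibroblasts.

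B3gnt9, whose activity is little described, was higher in fibroblasts, at 27.5 TPM against 1.06, a 25.9-fold difference. The main chain-extending enzyme B3gnt2 stood at 60.1 TPM in macrophages versus 17.2 in fibroblasts, 3.49-fold apart and within the limit. B3gntl1 and B3gnt5, which starts a class of glycolipids, were detected at 3.20 and 3.35 TPM in fibroblasts versus 3.85 and 0.863 in macrophages; B3gnt4 was below 1 TPM and the core 3 enzyme B3gnt6 listed at 0. B3gnt9 was thus the leading member in fibroblasts with 52.3% of the family sum, and B3gnt2 in macrophages with 45.5%. The sum was 52.7 TPM in fibroblasts and 132 in macrophages. B3gnt8 maps to the plus strand of chromosome 7, from 25626654 to 25635100, B3gnt3 to the minus strand of chromosome 8, from 71690756 to 71701789, B3gnt7 to the plus strand of chromosome 1, from 86302832 to 86307305, and B3gnt9 to the minus strand of chromosome 8, from 105252638 to 105255153.

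**Figure D3:**
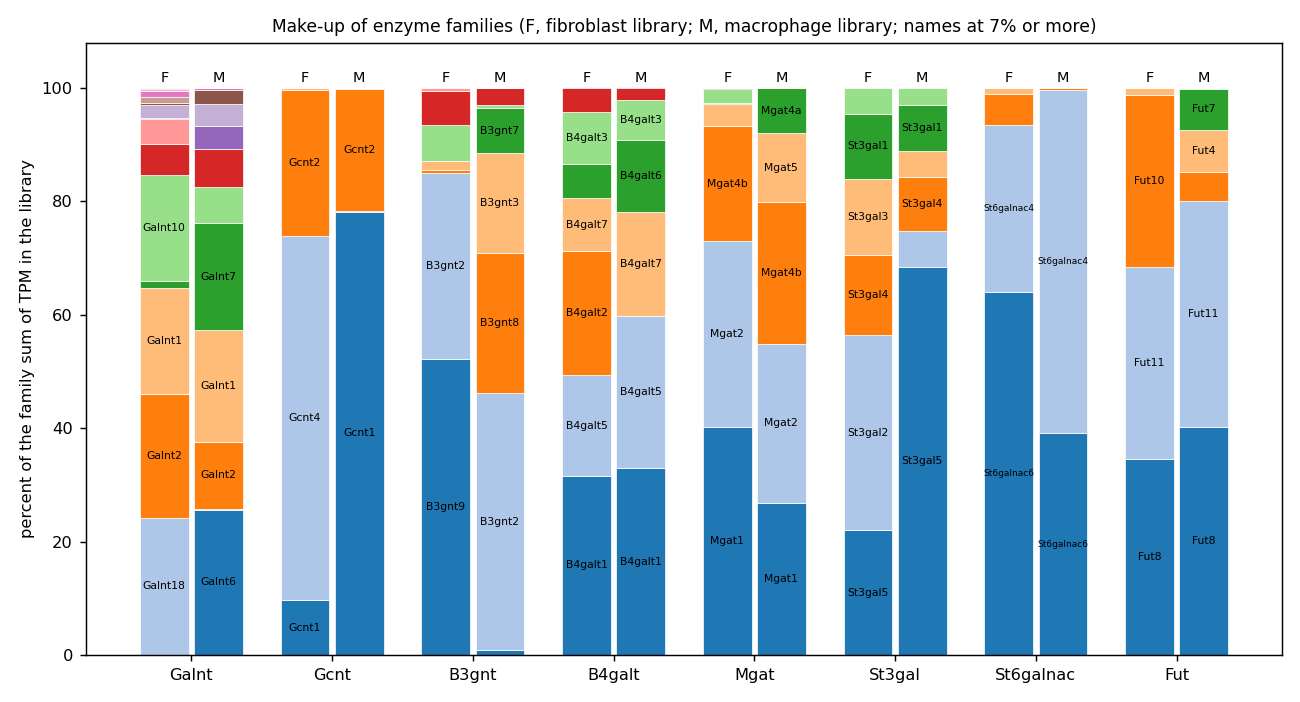
Share of each member in the summed TPM of its family (percent) in the fibroblast (F) and macrophage (M) libraries for 8 families; segments of 7% or more are named, and a colour stands for the same gene within a family. Gcnt4 gives way to Gcnt1, Galnt18 to Galnt6 and B3gnt9 to B3gnt2 and B3gnt8, while B4galt1 leads in both libraries. Fut8 and Fut11 have nearly equal shares in each library.

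Of the B4galt genes, which add galactose, 1 passed the rule. B4galt1, the main enzyme of N-acetyllactosamine, led its family in both libraries, at 84.2 TPM in fibroblasts versus 103 in macrophages. B4galt2, which makes the same linkage, stood at 58.4 TPM in fibroblasts versus 0.0567 in macrophages (log2 ratio 5.81). B4galt3 and B4galt4 stood at 24.5 and 11.1 TPM in fibroblasts versus 22.4 and 6.43 in macrophages. B4galt2 made up 21.9% of the B4galt TPM in fibroblasts, while the family sums were 267 and 312 TPM. It maps to the minus strand of chromosome 4, from 117869260 to 117883487, and 48667 bases separate it from St3gal3, which did not pass the rule.

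The remaining galactosyltransferases serve other chains. B4galt7 and B3galt6 build the linker that carries heparan and chondroitin sulfate, and stood at 24.8 and 7.59 TPM in fibroblasts versus 57.7 and 4.82 in macrophages. B3galt4, which makes the ganglioside GM1, stood at 4.46 and 12.5 TPM. B3galt1 and B3galt5, which make type 1 chains, were detected below 5 TPM in a single library each, B3galt1 at 3.17 TPM in fibroblasts and B3galt5 at 1.16 TPM in macrophages, and listed at 0 in the other; B3galt2 was listed at 0 in both.

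Some of the members that serve glycolipids are given together here, in an order put together after their values were seen. None of the genes with values in this paragraph passed the rule. Others are given with their families, among them St3gal2, which passed toward fibroblasts, and B3gnt5 and B3galt4, which did not pass. Lactosylceramide is made by B4galt5 and B4galt6, at 47.2 and 16.3 TPM in fibroblasts versus 83.7 and 39.2 in macrophages. St3gal5, which adds the sialic acid that makes GM3, stood at 45.2 and 136 TPM, a 3.00-fold difference. B4galnt1, the next enzyme and no member by name, stood at 30.1 and 73.2 TPM.

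Ugcg, which makes the glucosylceramide that all of them start from, was at 62.2 TPM in fibroblasts versus 17.1 in macrophages. A4galt, which turns lactosylceramide into the globo series, was higher in fibroblasts with 9.04 TPM, beside 0.0515 in macrophages (log2 ratio 3.25). It was the 1 call among 4 genes at 5 TPM of the 7 listed glycolipid genes outside the name rule (25%), beside 23.1% of all genes. The GD3 synthase gene St8sia1 stood at 0.0309 and 0.280 TPM, below 1 TPM in both libraries, and St8sia5 at 0 and 0.0553.

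Of the fucosyltransferases 1 passed the rule. Fut8, which adds the core fucose of N-glycans, stood at 17.7 TPM in fibroblasts versus 10.8 in macrophages. In both libraries it was only just ahead of Fut11. Fut10 and Fut11 are placed by sequence near the enzymes that fucosylate GlcNAc. Fut11 stood at 17.4 and 10.7 TPM, and Fut10 was higher in fibroblasts, at 15.5 TPM against 1.38, an 11.2-fold difference. Fut10 maps to the plus strand of chromosome 8, from 31187331 to 31261738.

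Fut4 and Fut7, which finish the selectin ligand sialyl Lewis X on leukocytes, stood at 1.99 and 1.93 TPM in macrophages versus 0.670 and 0 in fibroblasts, under the 5 TPM minimum. Fut1 and Fut9 were listed at 0 in both libraries, and Fut2 stood at 0.0450 TPM in macrophages and 0 in fibroblasts. The selectin ligand carrier Selplg (PSGL-1) stood at 240.0 TPM in macrophages versus 0.869 in fibroblasts, and the sialomucin Spn (CD43) at 17.9 in macrophages and 0.126. These 2 were the calls among 6 genes at 5 TPM in a list of 10 mucin-like carriers and selectin ligands (33.3%), beside 23.1% of all genes. Cd44 in the same list stood at 222 TPM in macrophages and 185 in fibroblasts. Neutrophils also express Fut4, Fut7 and Selplg, and their part in these values was not tested.

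The 20 sialyltransferases had nearly equal summed levels, 292 TPM in each library, and differed in make-up. All 6 St3gal genes, which cap galactose, were at 5 TPM or more in both. St3gal2, which acts on core 1 and gangliosides, was higher in fibroblasts at 70.7 TPM against 12.5, a 5.65-fold difference. St3gal5 held 68.5% of the St3gal TPM in macrophages and 22.0% in fibroblasts, where St3gal2 led with 34.4%. St3gal1, the other core 1 enzyme, stood at 23.5 TPM in fibroblasts versus 16.1 in macrophages.

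St3gal3, St3gal4 and St3gal6, which cap N-acetyllactosamine, stood at 27.7, 29.2 and 9.42 TPM in fibroblasts versus 8.93, 18.8 and 6.05 in macrophages. All of the St3gal genes but St3gal5 thus had the higher value in fibroblasts. St3gal2 maps to the plus strand of chromosome 8, from 110919922 to 110972480.

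St6gal1, which caps N-glycans with the other linkage of sialic acid, was higher in macrophages, at 17.2 TPM against 3.28. Its log2 ratio of -2.08 was the closest of the 19 calls to the limit. St6gal2 was listed at 0 in both, so that St6gal1 was the single detected gene of this activity. St6gal1 maps to the plus strand of chromosome 16, from 23224740 to 23360350. Cd22, a lectin that binds this linkage, stood at 5.76 TPM in macrophages versus 0 in fibroblasts.

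Among the St6galnac enzymes, which put sialic acid on the GalNAc of O-glycans and on gangliosides, St6galnac6 and St6galnac4 made up 93.4% of the family TPM in fibroblasts and 99.6% in macrophages. St6galnac6 stood at 51.0 and 27.9 TPM and St6galnac4 at 23.5 and 43.2, so that the order of these neighbours, with 11 bases between the annotated genes on chromosome 2, was opposite in the libraries. Both differences were under 2-fold. St6galnac2, on 2 differing rows that were added, stood at 4.35 and 0.252 TPM, under the minimum. St6galnac3 and St6galnac5 were below 1 TPM, and St6galnac1, the enzyme of the sialyl-Tn antigen, was listed at 0.

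The polysialic acid enzymes St8sia2 and St8sia4, which build long chains on the adhesion protein NCAM and others, were each detected in a single library. St8sia4 was higher in macrophages, at 5.39 TPM against 0.0519, just over the 5 TPM minimum. St8sia2 stood at 3.50 TPM in fibroblasts versus 0 in macrophages, under it. St8sia2, like Galnt13, is known from neural tissue, and 2 of the 4 neural genes named above, Stmn2 and Tubb3, were higher in the same library; the part of neural cells in both values was not tested. St8sia3 and St8sia6 were below 1 TPM in both. St8sia4 maps to the minus strand of chromosome 1, from 95587682 to 95667571.

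Levels of the called members in the library where they were low were set beside low-level RNA of the other cell type. The 14 fibroblast markers at 100 TPM or more appeared in the macrophage library at a median of 0.177% of their level, with a range of 0.0738% to 0.523%. Galnt18, B4galt2, Gcnt4 and Mgat3 appeared there at 0.0815%, 0.0970%, 0.151% and 0.277%, within that range. Galnt13 was listed at 0 there, and B3gnt9, Fut10, St3gal2 and Galnt10 appeared at 3.86%, 8.89%, 17.7% and 19.6%, above the range. The 17 macrophage markers at that level appeared in the fibroblast library at a median of 0.0961% (0.0384% to 0.441%), and Galnt6 at 0.412%, within it. B3gnt8, St8sia4, Gcnt1, B3gnt3 and Mgat4a appeared at 1.05%, 0.964%, 3.02%, 3.49% and 3.72%, above it, as did Galnt12, Galnt7 and St6gal1 at 8.55%, 12.3% and 19.1%, while B3gnt7 was listed at 0. The source of these low values was not tested.

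Exons of 8 of the 19 called members overlap another annotated gene, and whether reads were assigned by strand is not given in the sources used here. B4galt2 overlaps Ccdc24 on its own strand, at 0.667 TPM in fibroblasts versus 0 in macrophages, and Slc6a9 on the opposite strand, at 17.2 and 1.13 TPM. B3gnt8 overlaps Bckdha, at 24.1 and 23.4 TPM, and B3gnt9 overlaps D230025D16Rik, at 15.1 and 17.1 TPM, both on the opposite strand. St6gal1 overlaps BC106179, at 0.162 and 0.265 TPM. Galnt6, Galnt7, Gcnt4 and B3gnt7 overlap opposite-strand genes that were not analysed here.

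Calls in the lists around the members stand beside the 23.1% of all genes at 5 TPM or more that passed the rule. The first lists hold genes that supply these enzymes with activated sugars. None of 4 sialic acid synthesis and transport genes at 5 TPM passed the rule: Nans stood at 73.7 TPM in fibroblasts versus 77.0 in macrophages, and Cmas, which activates sialic acid, at 26.6 and 62.6. Of 6 GDP-fucose genes none passed, with Slc35c2 at 43.7 and 92.8 TPM and Tsta3 at 46.2 and 50.2. Of 15 UDP-sugar genes 1 passed, Gfpt2 of the hexosamine pathway, at 5.55 TPM in fibroblasts against 0.101. The median log2 ratios of these lists were 1.12, -0.04 and 0.87.

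The next lists cover stages before and around the Golgi enzymes, again beside the 23.1% of all genes. Of 19 genes of N-glycan transfer and trimming in the endoplasmic reticulum, 2 passed: Uggt2, a folding sensor, was higher in fibroblasts (12.6 TPM, macrophages 0.935), and Edem1, which marks misfolded glycoproteins, in macrophages (202 TPM, fibroblasts 49.1). Their median was 0.42. None of 17 Golgi retention and tethering genes passed, with Gorasp2 at 147 and 88.9 TPM, Tmem165 at 105 and 52.2, and a median of 0.26. Of 8 sialic acid removal and breakdown genes at 5 TPM, only Npl, which splits free sialic acid, passed, at 9.77 TPM in macrophages against 0.684; the list's median was -1.13.

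Transferases outside the name rule were divided. Of those at 5 TPM, 25% were called toward fibroblasts and 16.7% toward macrophages, beside 14.3% and 8.77% of all genes. Of 12 at 5 TPM among the 21 listed, 3 were higher in fibroblasts, among them Pomgnt2 and B3glct, which had 12.1 and 24.7 TPM there and 1.18 and 4.50 in macrophages. Pomgnt2 acts on the O-mannose glycans of dystroglycan. The Notch-modifying fringe genes Lfng and Mfng were the 2 higher in macrophages, where they reached 82.7 and 10.2 TPM, with 11.4 and 0.0527 in fibroblasts. The list's median log2 ratio was 0.97.

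Of 4 glycan sulfotransferases at 5 TPM among 10 listed, Chst7 (31.0 TPM, macrophages 0.911) and Chst2 (8.18 TPM, macrophages 0.0262) were higher in fibroblasts, and the list median was 1.89. All 4 sialic acid binding lectins at 5 TPM passed. Over all genes at 5 TPM or more the share was 23.1%. Siglec1 and Cd33 stood at 162 and 65.9 TPM in macrophages against 0.287 and 0.0551, Cd22 was given above, and Siglecg was higher in fibroblasts at 30.6 TPM against 0.532. The medians were -2.23 for the lectins, -0.69 for the mucin-like carriers and 1.28 for the glycolipid genes outside the name rule.

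**Figure D4:**
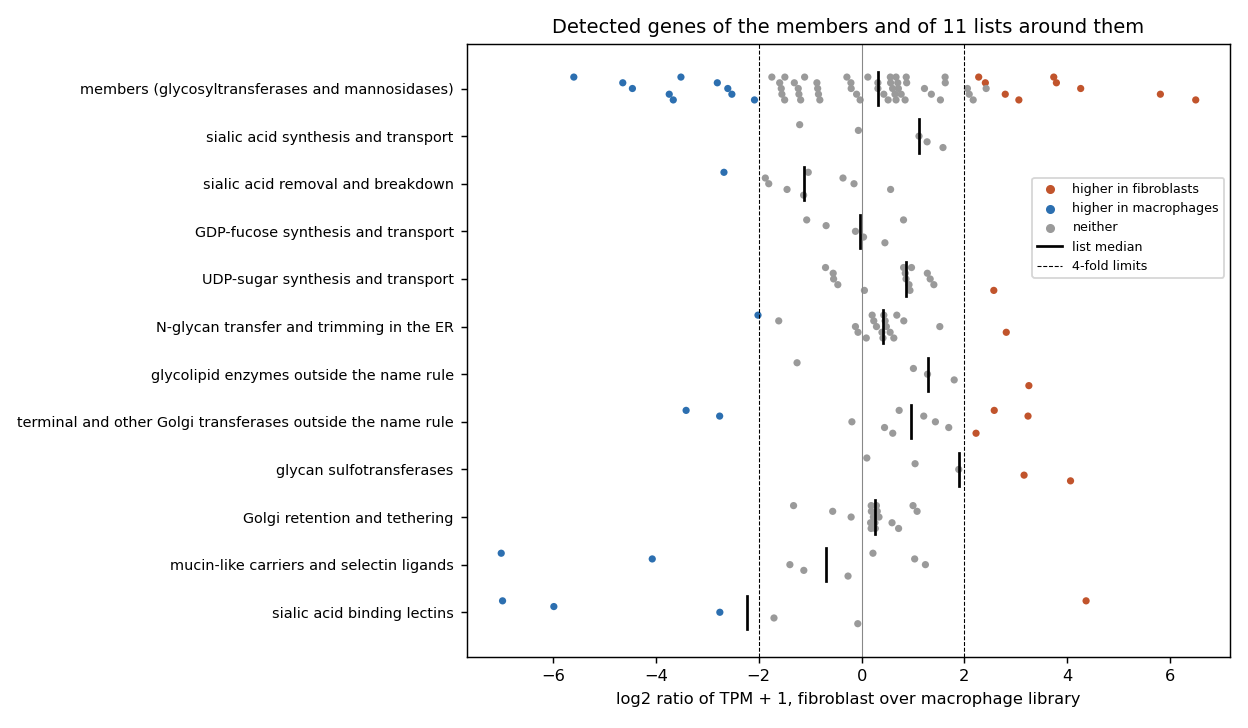
Log2 ratio of TPM plus 1, fibroblast over macrophage library, of every detected gene of the members and of 11 lists around them; each point is a gene, black bars are list medians and dashed lines the 4-fold limits. Members reach from -5.60 (Galnt6) to 6.50 (Galnt18), while the sugar supply, endoplasmic reticulum and Golgi retention lists lie mostly between the limits; grey points beyond them are genes under 5 TPM.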

How the data were processed

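RNA of 1 fibroblast and 1 macrophage library was measured by paired reads of 76 bp from a stranded poly(A) kit, per the labels' protocols. Kallisto 0.43.1 and the build GRCm38 are named in the submitters' processing notes; the sources used here do not give the transcript set, how transcripts were joined into genes, or the strand setting. The unit of the deposited values was taken to be TPM from the column totals, as no header states it. From them, rows sharing a symbol were added (34456 rows, 34295 genes), and log2 ratios were taken on TPM plus 1, which understates the change of low genes. No test was run. Positions come from GENCODE M21, an annotation of GRCm38, which matched 86 of the 87 members by symbol. Promoters come from RefSeq.

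The members, lists and rule were chosen with earlier results of these data known. Named genes are all members past the size rule, up to 3 others per family with the highest value, and in each list up to 3 per direction past the rule, or 2 with the highest value where none passed; other genes were named after their values were seen. A gene that this rule selects is not reported here. The lists are the marker lists and the 11 pathway lists given with their counts. The calling step was tested on simulated data. Analyses used Python 3.11.15 with pandas 2.3.3. Alternatives were another pseudocount, minimum, threshold, scaling, row choice and subtraction of the other cell type's share.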

Additional observations from a re-analysis of the deposited data

How the results depend on the processing

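No paired analysis was possible because each group holds 1 library, and no library could be left out. With a pseudocount of 5 the members higher in macrophages fell from 10 to 6, and those higher in fibroblasts were 6. Together these were 22.2% of the members at 5 TPM or more, beside 13.8% of all genes. All genes gave 896 toward fibroblasts and 652 toward macrophages, and the larger pseudocount lowers every ratio by construction. The members that lost their call were B3gnt7, Fut10, Galnt12, Gcnt4, Mgat3, St6gal1 and St8sia4. With a 2-fold threshold 19 members were higher in macrophages and 11 in fibroblasts. All genes gave 2637 toward fibroblasts and 1698 toward macrophages at that threshold. The shares called at that threshold were 55.6% of the members and 38.7% of all genes. The median log2 ratio of the detected members was 0.14 under median-of-ratios scaling, which shifted genes at 5 TPM in both libraries from a median of 0.18 to 0, and 0.15 over all members above 0 TPM. Under a pseudocount of 0.1, a minimum of 1 or 10 TPM or none, both rescalings, the highest single row and the subtraction of the other cell type's share, members called were 8 to 13 toward fibroblasts and 8 to 10 toward macrophages. With no minimum, 26.4% of the members and 8.2% of all genes were called. In the other settings of this group the shares were 34% to 36.2% of the members and 20.7% to 24.6% of all genes. In the row and subtraction alternatives for the family make-up, added after the data were seen, 9 families differed in their leading member, as before. Among the 65 detected members 1 changed sign, B4galt3, which has no call: its log2 ratio of 0.12 was -0.05 under median-of-ratios scaling and -0.0049 without mitochondrial and the highest genes. No called direction among the 74 named genes reversed. TPM keep no depth, so low values have no known precision.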
